A study of Mus musculus with 7 samples.

Results

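Mature oligodendrocytes, the cells that wrap axons in myelin, were described in single-nucleus RNA libraries from 7 brains of 5xFAD mice. Their nuclei were chosen by marker genes. Barcodes needed 300 genes or more and less than 5% mitochondrial UMIs (unique molecular identifiers, each counting 1 captured RNA molecule). A barcode counted as a mature oligodendrocyte when it had under 3 UMIs of the neuronal genes Rbfox3 and Snap25 together, at least 3 detected of St18, Prr5l, Mog, Mag, Mobp and Ugt8a with at least 20 UMIs of these per 10000, and at most 1 detected of the 4 precursor genes Gpr17, Bmp4, Enpp6 and 9630013A20Rik. The rule found 9886 nuclei among 58169 kept ones (17.0%), with 20867575 UMIs in all.

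All mice carried the 5xFAD transgenes on 1 chromosome copy (5xFAD +/-), which are driven by the neuronal Thy1 promoter and lead to amyloid plaques. They were 6 months old, 2 months after a retro-orbital injection given at 4 months of either Control AAV (3 mice) or ANGPT2 AAV (4 mice). The angiopoietin ANGPT2 is released mainly by blood vessel cells and binds their receptor TIE2. No group without the transgenes or without a virus was analysed here, and the labels name neither the promoter of the virus nor the species of its ANGPT2. The tissue is labelled as subcortex, thalamus and hippocampus. By the labels each library is a separate mouse. Both sexes of both groups were in batch 1. In batch 2 there were an ANGPT2 mouse of each sex and a control male, but no control female.

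Oligodendrocytes arise from dividing precursors that express Pdgfra, pass through a committed stage marked by Gpr17, Bmp4 and Enpp6, and then switch on the genes of compact myelin. Mature cells differ along a gradient. In mouse atlases Opalin marks actively myelinating stages, Klk6 one mature branch common in the spinal cord, and Ptgds and Il33 another branch common in the brain. In mice with amyloid plaques some oligodendrocytes are known to raise complement C4b, the protease inhibitor Serpina3n and class I antigen presentation genes.

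The libraries held 842 to 1770 of these nuclei each. Their median depth was 2155 to 2837 UMIs in the 4 libraries of batch 1 and 863 to 1235.5 in the 3 of batch 2, so depth differed by batch far more than by group. Between 63 and 137 barcodes were shared by any pair of libraries, at most 7 of them in oligodendrocytes of both. At the edge of the rule, 42 members had 20 to 25 marker UMIs per 10000 and 58 nuclei were left out at 15 to 20. All 6 markers were detected in 3150 members and only 3 in 1342, and 1686 members had 1 of the 4 precursor genes. Another 1522 nuclei passed every other criterion but had 3 or more neuronal UMIs, and 99 had 2 or more precursor genes. A doublet caller marked 471 members, which were kept.

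Myelin genes that the rule had not used were high in these nuclei. These levels describe the class, with no test, since the nuclei were chosen on its markers. Levels are counts per 1000000 UMIs (CPM) of the nuclei summed per library. Mbp, the main cytosolic protein of compact myelin, lay between 4445 and 5495 CPM over the 7 libraries, against 197 to 398 in nuclei with astrocyte markers and 265 to 464 in nuclei with microglial markers. Mal, a myelin proteolipid, lay between 439 and 823 CPM. Sox10, the transcription factor of the whole lineage, was at 80.5 to 133 CPM. Of the markers the rule did use, the transcription factor St18 was at 3442 to 4448 CPM, Prr5l at 1946 to 2832 and Mobp, a small basic protein of compact myelin, at 1518 to 1868. Mog, on the outer surface of the sheath, and Mag, on the membrane next to the axon, reached 589 to 834 and 527 to 713 CPM, and Ugt8a, the enzyme of galactocerebroside synthesis, 504 to 1181. Of the genes that the rule limited, Enpp6 was still at 74.6 to 140 CPM, while Gpr17 and Bmp4 stayed at or below 6.82 and 1.24 CPM.

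**Figure D1:**
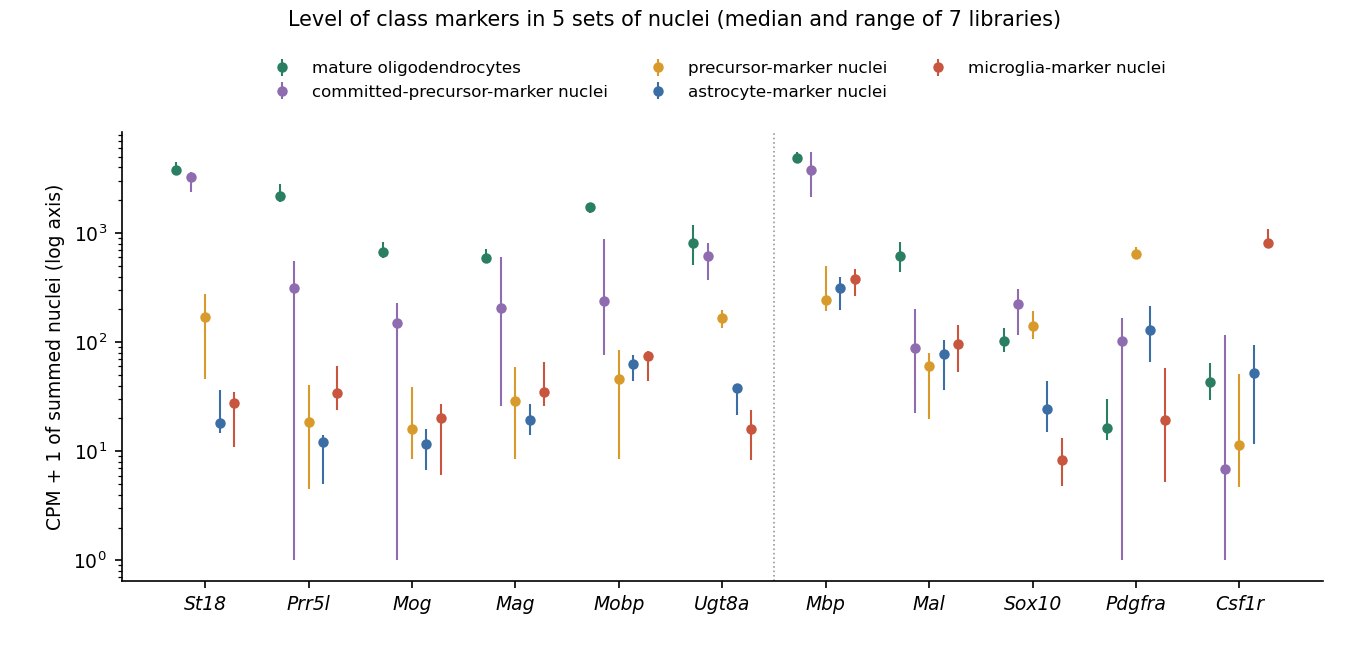
Level of 6 markers used by the rule (left of the dotted line) and 5 other genes (right of it) in 5 sets of nuclei, as CPM + 1 on a log axis; points are medians and lines the range of 7 libraries. Mbp and Mal separate mature oligodendrocytes (median Mbp 4901 CPM) from nuclei with astrocyte (310), microglial (382) and precursor markers (245), while nuclei with committed-precursor markers lie close for St18 and Mbp.

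Mature oligodendrocytes made up similar shares of the kept nuclei in both groups. The share was 19.6%, 15.7% and 15.7% in the controls, in the order male of batch 1, female of batch 1, male of batch 2. It was 20.9%, 15.1%, 13.4% and 18.2% in ANGPT2, in the order male and female of batch 1, then male and female of batch 2. Values below keep these orders. The lowest and the highest share both came from the ANGPT2 group, and the control values lay within its range. The means were 17.0% ± 2.22 (SD, n = 3) and 16.9% ± 3.32 (SD, n = 4), a difference of -0.09 percentage points (two-sided exact permutation test, p = 0.971). With 3 against 4 libraries the smallest p this exact permutation test can give is 0.0571. The difference was 0.37 points within batch 1 and 0.07 within batch 2.

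Angpt2 itself was scarce in these nuclei, at 2 to 10 UMIs per control library and 0 to 5 per ANGPT2 library. In all other kept nuclei it was at 3.97, 4.25 and 4.23 CPM in the controls and 4.82, 3.75, 2.31 and 2.94 CPM in the ANGPT2 libraries, so the mouse gene did not mark the treated group. Tek, which encodes TIE2, had 1 to 9 UMIs per library in oligodendrocytes.

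Summed over the oligodendrocytes of each library, 12831 genes were tested between the groups. With edgeR's quasi-likelihood test, 0 genes (0%) had a Benjamini-Hochberg adjusted p under 0.05, and DESeq2 also called 0. At an unadjusted p under 0.05 edgeR had 367 genes (2.86%), of which 157 were higher (1.22%) and 210 lower (1.64%) in ANGPT2, and DESeq2 had 208. The control and ANGPT2 libraries did not overlap for 244 genes in which every ANGPT2 library was higher (1.9%) and for 281 in which every one was lower (2.19%). No single gene below can therefore be called changed by the treatment. Levels and log2 changes are given as values. The levels are CPM scaled by edgeR's TMM factors, and a log2 change is ANGPT2 over control with its standard error. Gene lists are described by counts and medians, beside the median log2 change of 0.00 over all genes tested (6444 higher, 6387 lower).

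Most tested genes of the disease-associated, class I antigen presentation and interferon response lists had lower levels in ANGPT2. Of 26 tested genes of the disease-associated oligodendrocyte list, 24 had a log2 change below 0, with a median of -0.47. In 6 of them the unadjusted p was under 0.05, and in 2, H2-D1 and C4b, the groups did not overlap. Of 13 tested genes for class I antigen presentation 12 were below 0 (median -0.35, 4 at an unadjusted p under 0.05, 2 without overlap). Of 22 tested interferon response genes 20 were below 0 (median -0.57, 8 at an unadjusted p under 0.05, 1 without overlap). The 3 lists share genes. Over all genes tested 1.64% were lower at an unadjusted p under 0.05, and 2.19% were lower in every ANGPT2 library.

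H2-D1 encodes a heavy chain of the class I molecule that presents peptides to T cells (GRCm38, chromosome 17, 35262730 to 35267499). It stood at 29.5, 58.5 and 24.2 CPM in controls. In the ANGPT2 libraries it was at 11.1, 13.1, 18.7 and 17.7 CPM. Every control was above every ANGPT2 library, with the widest gap in batch 1. The log2 change was -1.40 ± 0.30 (SE), with an unadjusted p of 0.000557 (edgeR). With the control female of batch 1 left out it was -0.95. Nlrc5, the transactivator of the class I genes, was at 5.28, 22.1 and 5.90 CPM in controls and at 1.59, 2.34, 0.892 and 4.77 CPM in ANGPT2. The groups did not overlap, but these levels rest on few UMIs, 1 to 10 in each ANGPT2 library and 9 in the control male of batch 2. Its log2 change was -2.27 ± 0.60, and -1.25 without the control female of batch 1. H2-K1, a second heavy chain, had a log2 change of -1.15 ± 0.39, and B2m, the light chain they share, one of -0.60 ± 0.27. H2-D1 and H2-K1 are close relatives in sequence, so their counts are uncertain.

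C4b, a complement component, was at 71.9, 215 and 72.1 CPM in controls and at 46.1, 54.6, 32.1 and 70.8 CPM in ANGPT2. The highest ANGPT2 library lay just below the lowest control, while the control female of batch 1 was far above all the others. The log2 change was -1.23 ± 0.36, and -0.50 without that female. After each nucleus was thinned to 500 UMIs, C4b was detected in 11.2% of her oligodendrocytes and in 0.950% to 3.73% of those of the other 6 mice. Serpina3n, thinned the same way, was detected in 0.282%, 1.75% and 0.198% of the control nuclei. In the ANGPT2 libraries its share was 0.315%, 0.484%, 0.238% and 0.394%, so only the control female of batch 1 lay above them. C4b has a close copy in the mouse genome, so its counts are uncertain. Gadd45b, a stress-inducible gene, had a log2 change of -1.17 ± 0.49.

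Among interferon response genes, Stat2, a signal transducer of the type I receptor, was at 28.3, 27.5 and 32.1 CPM in controls. In ANGPT2 it was at 25.4, 21.3, 20.5 and 21.1 CPM, without overlap. Its log2 change was -0.38 ± 0.16, and -0.47 to -0.11 over all settings. Irgm1, an interferon-inducible GTPase, had a log2 change of -1.42 ± 0.46, Parp9 -1.42 ± 0.48 and Trim30a -1.08 ± 0.44. Irgm1, Parp9 and Trim30a were at or below 22.1 CPM everywhere and highest in the control female of batch 1.

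That library carried much of the list medians. It is the only control female, so this mouse and sex cannot be told apart by leaving it out. With sex as a covariate the log2 change was -1.46 for H2-D1 and -1.27 for C4b. Without that library the median was -0.13 for the disease-associated list, with 10 of 24 tested genes above 0. The median was then -0.30 for interferon genes, and -0.29 for class I genes with 12 of 13 still below 0. Within batches the disease-associated median was -0.45 in batch 1 and -0.05 in batch 2, the class I median -0.41 and -0.21, and the interferon median -0.74 and -0.10.

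Microglial genes lay on the same side. All 12 genes of the microglia list had a log2 change below 0 (median -0.39), and their summed level was 753, 913 and 454 CPM in controls and 570, 560, 434 and 611 CPM in ANGPT2. The list median was -0.56 within batch 1 and 0.36 within batch 2, and -0.11 without the control female of batch 1. The defining markers Csf1r, P2ry12 and Cx3cr1 were present at low levels, 28.3 to 64.1, 23.4 to 51.8 and 22.1 to 42.2 CPM, and none of the 12 genes was at 0 in all libraries. Tyrobp, a microglial adaptor protein named after its values were seen, was lower in every ANGPT2 library (log2 change -0.74 ± 0.24). With the 1149 nuclei that held 2 or more microglial genes left out, a choice made after the data were seen, H2-D1 had a log2 change of -1.33 ± 0.31 and C4b of -1.30 ± 0.38. The list medians were then -0.37 for the disease-associated genes, -0.34 for class I and -0.34 for interferon genes, over 23, 12 and 12 tested genes. Nlrc5 and Irgm1 were not among the genes tested in that setting. In nuclei with microglial markers Nlrc5 had a median level of 54.4 CPM before TMM scaling, against 4.34 in oligodendrocytes. For H2-D1 these medians were 72.1 and 17.9 CPM, for H2-K1 78.7 and 17.3, for B2m 123 and 29.9, and for C4b 8.16 and 64.4 CPM. In nuclei with astrocyte markers the medians were 5.01 CPM for Nlrc5, 18.6 for H2-D1 and 41.5 for C4b. The part of microglial or astrocyte RNA in the differences of these genes was not tested.

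**Figure D2:**
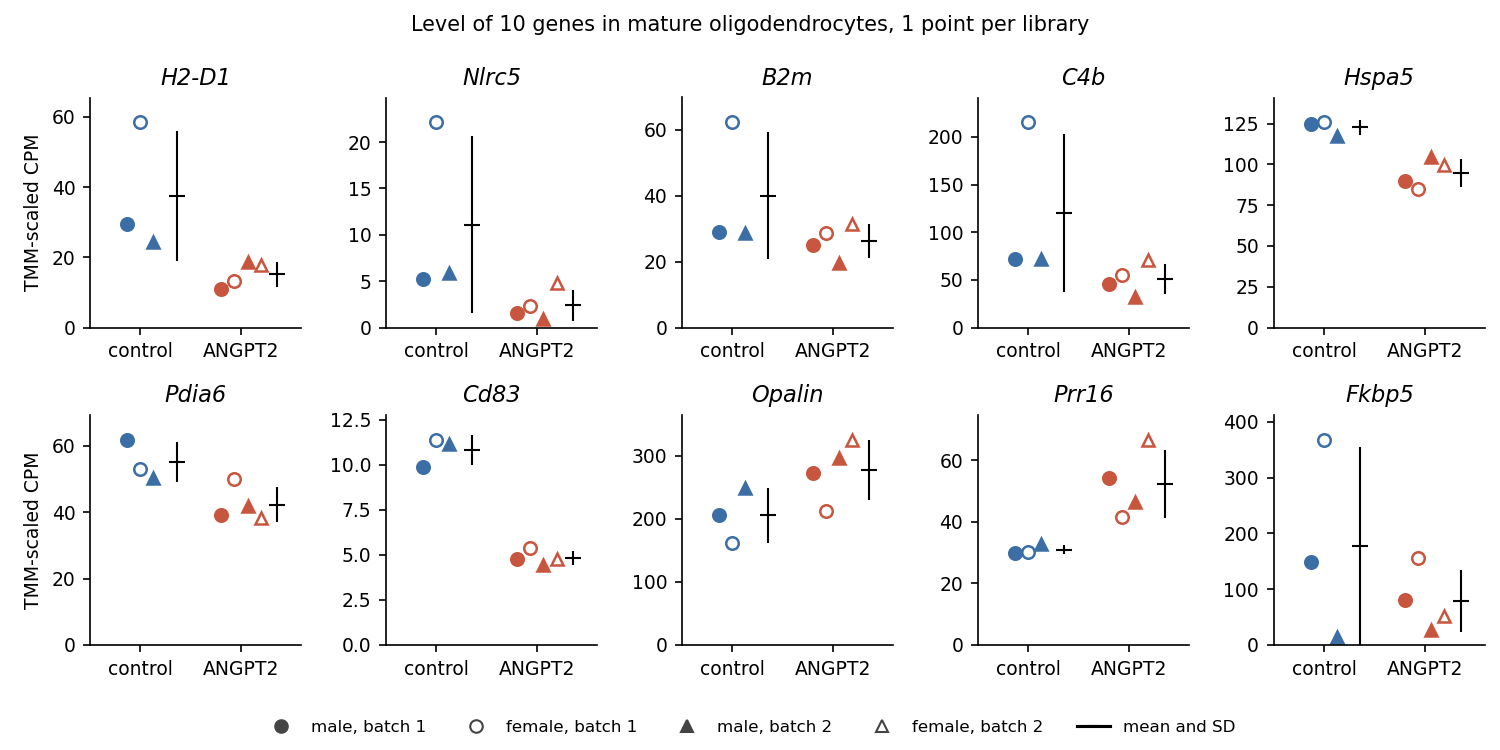
Level of 10 genes in mature oligodendrocytes, in TMM-scaled CPM on axes that start at 0, 1 point per library; shape gives the batch, open points are females, and bars are the mean and SD of each group (the control SD of Fkbp5 runs below the axis). H2-D1, Nlrc5, C4b, Hspa5, Pdia6 and Cd83 lie lower in every ANGPT2 library and Prr16 higher, while the control female of batch 1 stands apart for H2-D1, Nlrc5, B2m, C4b and Fkbp5.

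Genes of the unfolded protein response, through which a cell adds chaperones when proteins misfold in the endoplasmic reticulum, were lower with less dependence on 1 mouse. Of 25 tested, 22 had a log2 change below 0, with a median of -0.24, and -0.23 without the control female of batch 1. The median was -0.32 in batch 1 and -0.15 in batch 2. In 4 of them the unadjusted p was under 0.05, and in 3, Hspa5, Pdia6 and Dnajb9, the groups did not overlap. Over all genes tested the shares of such lower genes were 1.64% and 2.19%. Hspa5, the main chaperone of the compartment, was at 125, 126 and 117 CPM in controls and at 89.8, 85.1, 104 and 99.4 CPM in ANGPT2. The log2 change was -0.39 ± 0.13 (edgeR, unadjusted p = 0.0108). Pdia6, a disulfide isomerase, was at 61.9, 53.1 and 50.5 CPM in controls and at 39.2, 49.9, 41.9 and 38.1 CPM in ANGPT2, with a log2 change of -0.38 ± 0.15. The highest ANGPT2 value of Pdia6 lay just under the lowest control. With each nucleus thinned to 500 UMIs before summing, Pdia6 was at -0.20 and Hspa5 at -0.48. Over all settings the list median was -0.32 to -0.18 and Dnajb9 -0.43 to -0.14. Dnajc3, a co-chaperone and kinase inhibitor, had a log2 change of -0.41 ± 0.18, Dnajb9 one of -0.36 ± 0.18, and Ppp1r15a, the stress-induced phosphatase subunit, one of -1.48 ± 0.46 on 0.681 to 10.8 CPM. In all other kept nuclei of the same libraries the log2 change of Hspa5 was -0.13. The difference between the classes was -0.23 ± 0.16, with an unadjusted p of 0.173.

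The sequences next to the starts of these genes were read because members of each list differed in the same direction. They come from RefSeq promoters on GRCm38.p6 (250 bases before to 50 after each start) and are written 5′ to 3′ along the gene's strand. Capitals mark the motif, and all bases shown lie before the RefSeq start, although those of Hspa5 and Irgm1 fall inside the longer GENCODE M21 gene. The ER stress response element, spelled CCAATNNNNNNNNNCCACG and searched on both strands, was found in 7 of the 21 unfolded protein response genes with a promoter in the table, and in 39 of 32851 promoters overall (0.119%). Of the 7 genes, 6 had a log2 change below 0. The median was -0.38 over the 7 and -0.24 over the 14 others. The windows of 3 of them are shown because these genes are described above, at chr2:34772020-34772048, chr12:17266461-17266539 and chr14:118937787-118937885.
Hspa5: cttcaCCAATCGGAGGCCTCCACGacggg
Pdia6: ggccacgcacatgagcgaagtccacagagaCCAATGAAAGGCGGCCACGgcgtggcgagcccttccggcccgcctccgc
Dnajc3: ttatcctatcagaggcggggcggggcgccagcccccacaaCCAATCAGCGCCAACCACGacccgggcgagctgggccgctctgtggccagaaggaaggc

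The interferon-stimulated response element, spelled GAAANNGAAA, was also searched on both strands. It was in 8 of 18 interferon response genes and 4 of 11 class I genes with a promoter in the table, against 3.44% of all promoters. For both motifs a gene counted if any of its listed promoters matched, so counts of genes and shares of promoters are unlike units. The median log2 change of the interferon genes with the motif was -0.55, and -0.72 for the others. B2m held 1 copy at chr2:122147508-122147597 and Irgm1, on the minus strand, 2 overlapping copies at chr11:48871430-48871455. A match is a description of the letters and not a binding site. Both motifs were chosen after the list values were known.
B2m: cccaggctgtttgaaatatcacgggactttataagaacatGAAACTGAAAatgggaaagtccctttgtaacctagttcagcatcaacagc
Irgm1: ttcaaGAAATAGAAACCGAAActgat

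Glucocorticoid response genes depended on batch and on 1 mouse. These genes are induced by stress hormones, and Fkbp5 is their best known member. Fkbp5 was at 149, 368 and 15.1 CPM in controls. It was at 79.97, 156, 27.6 and 52.4 CPM in the ANGPT2 libraries. The lowest library of batch 1 was above the highest of batch 2, and ANGPT2 was lower than control in batch 1 and higher in batch 2. Sgk3, a kinase, had a log2 change of -0.80 ± 0.38, Plin4, a lipid droplet protein, one of -1.26 ± 0.69 and Pdk4, an inhibitor of pyruvate oxidation, one of -1.26 ± 0.60, none below an unadjusted p of 0.05. The median of the 22 genes was -0.31, and 0.07 with the control female of batch 1 left out. It was -0.41 within batch 1 and 0.67 within batch 2. Heat shock and early response genes had a median of -0.14 (13 of 18 below 0), with Fos at -0.83 ± 0.43 and Junb at -0.78 ± 0.37, both highest in that same female.

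Myelin genes were near even or slightly higher. Of 32 tested, 24 had a log2 change above 0, with a median of 0.05. An unadjusted p under 0.05 was seen for 3, namely Opalin, Cnp and Tmem88b, against 1.22% of all genes tested that were higher. The list holds Mog, Mag, Mobp and Ugt8a, which chose the nuclei. Without these 4, 20 of 28 were above 0, with a median of 0.06. With them, the median was 0.00 within batch 1 and 0.22 within batch 2. Cnp, an enzyme of non-compact myelin, was at 172, 136 and 170 CPM in controls and at 202, 227, 295 and 152 CPM in ANGPT2 (log2 change 0.46 ± 0.20). Its groups overlapped through the ANGPT2 female of batch 2. Tmem88b, a membrane protein, was higher in every ANGPT2 library (0.31 ± 0.14), while Mal had a log2 change of 0.30 ± 0.19 with overlap. Among 22 transcription factors of the lineage, 14 were above 0 (median 0.08). Sox8, which acts beside Sox10, had a log2 change of -0.40 ± 0.15, Olig2 one of 0.60 ± 0.29 and Creb5 one of 0.58 ± 0.28.

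The list of ion channels and gap junctions also holds transporters and glutamate receptors. It was split in sign, 16 of 29 above 0 with a median of 0.02. In 3 of its genes every ANGPT2 library was higher, against 1.9% of all genes tested. Kcnab1, an accessory subunit of voltage-gated potassium channels, was at 214, 197 and 236 CPM in controls and at 369, 309, 296 and 239 CPM in ANGPT2 (log2 change 0.50 ± 0.16). Gria4, an AMPA receptor subunit, had a log2 change of 0.45 ± 0.15, and Kcna2, a potassium channel, one of 0.42 ± 0.15. Without the control female of batch 1 their log2 changes were 0.43, 0.32 and 0.31. With each nucleus thinned to 500 UMIs before summing they were 0.43, 0.30 and 0.16.

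The other lists stayed close to the median of all genes. Cholesterol and lipid synthesis had 18 of 45 above 0 (median -0.02), with Sptlc2, of sphingolipid synthesis, higher in every ANGPT2 library (0.22 ± 0.13) and Stard4, a sterol carrier, at -0.49 ± 0.28. Axon support metabolism had 13 of 20 above 0 (median 0.06), with Carns1, carnosine synthase, lower in every ANGPT2 library (-0.35 ± 0.17). Iron handling had 9 of 14 above 0 (median 0.07), with Bmpr2 higher in every one (0.26 ± 0.12). Growth factor and neuregulin signalling had 18 of 27 above 0 (median 0.06), with Erbb4, a neuregulin receptor, at 0.35 ± 0.18, Gpr37 at 0.32 ± 0.17 and Fgfr2 at 0.36 ± 0.23. Among 13 tested genes of angiopoietin and vascular signalling 9 were above 0 (median 0.14). There, Nrp1, a co-receptor for vascular growth factor and semaphorins, had a log2 change of -0.68 ± 0.27. Flt1, an endothelial receptor, had one of 1.21 ± 0.50, which was -0.08 once called doublets were left out.

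**Figure D3:**
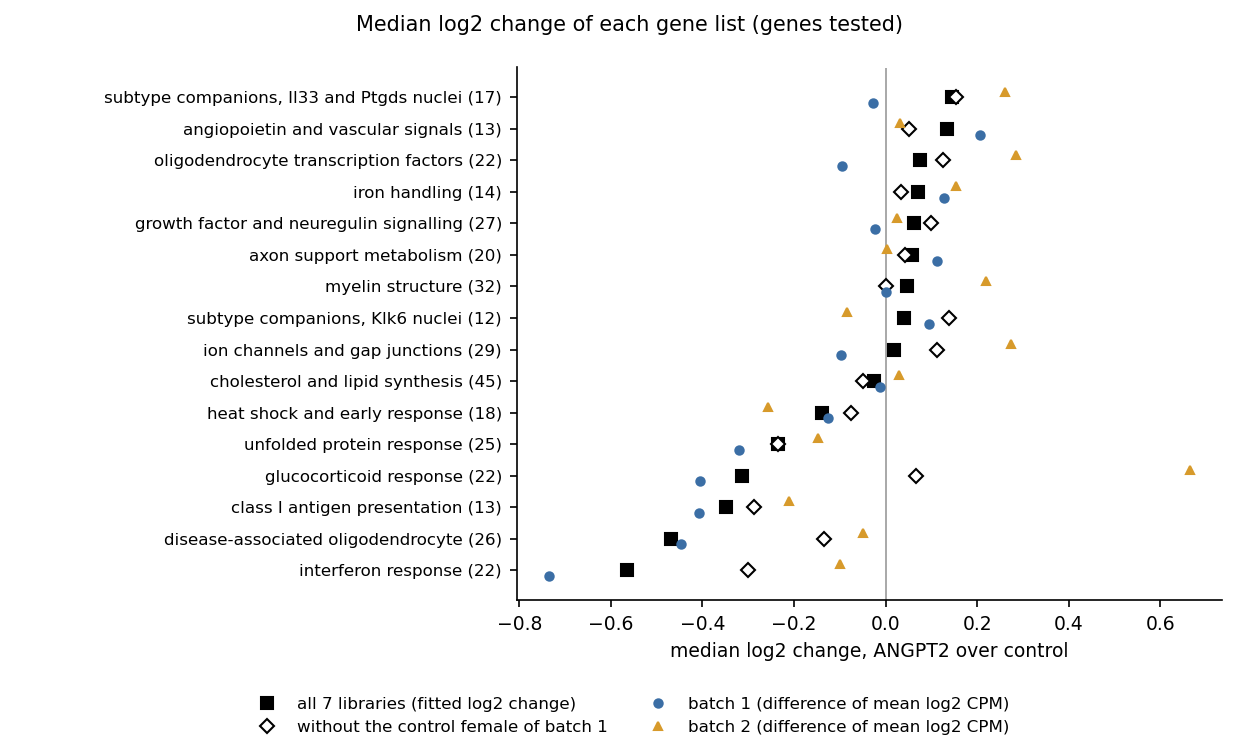
Median log2 change of 16 gene lists in mature oligodendrocytes, ANGPT2 over control, with the number of tested genes in brackets; squares use all 7 libraries, open diamonds leave out the control female of batch 1, and circles and triangles are differences of mean log2 CPM within batch 1 and batch 2. The unfolded protein response and class I lists lie below 0 in all 4, as do the interferon and disease-associated lists, which lie closest to 0 in batch 2, while the glucocorticoid list changes side.

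Over all genes, those with the smallest unadjusted p were low in abundance. Among the 10 lower ones, Cd83, a surface protein of antigen-presenting cells, was at 9.85, 11.4 and 11.1 CPM in controls and at 4.77, 5.39, 4.46 and 4.77 CPM in ANGPT2. The gap between the groups was wider than the spread in either, with a log2 change of -1.11 ± 0.25 on 5 to 56 UMIs per library. Cd68, a lysosomal protein of phagocytes, had a log2 change of -1.02 ± 0.24 and Cd52, a leukocyte surface protein, one of -1.69 ± 0.44. Lilrb4a, an inhibitory receptor of myeloid cells with close copies, was at -1.89 ± 0.48, Tnfsf9, a ligand that costimulates T cells, at -1.84 ± 0.46, C1ql2, a synaptic organiser, at -1.25 ± 0.29 and Trpc4, a cation channel, at -0.89 ± 0.22. Except for Lilrb4a, these 7 genes were lower in every ANGPT2 library. Cd83 and Cd68 had log2 changes of -1.36 and -1.55 with the nuclei that held 2 or more microglial genes left out. Cd52 was not among the genes tested in that setting, which does not remove free RNA. In nuclei with microglial markers Cd83 and Cd68 had median levels of 88.4 and 86.5 CPM, against 5.60 and 7.67 in oligodendrocytes. The part of microglial RNA in their differences was not tested. H2-D1 and Nlrc5 complete the named genes among these 10.

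Among the 10 higher ones, Prr16, a regulator of cell size, was at 29.9, 30.4 and 32.8 CPM in controls and at 54.3, 41.7, 46.4 and 66.7 CPM in ANGPT2. The 3 controls lay within 3 CPM of each other and below all 4 ANGPT2 libraries (log2 change 0.75 ± 0.18, edgeR, unadjusted p = 0.00113). Cdh6, a cadherin, had a log2 change of 0.55 ± 0.14, Marcks, a membrane-bound substrate of protein kinase C, one of 0.48 ± 0.14 and Rorb, a nuclear receptor, one of 0.59 ± 0.17. Coch, an extracellular matrix protein, was at 1.16 ± 0.35, Eps8l1, an actin regulator, at 2.45 ± 0.74 and Rsf1os2, an antisense RNA gene, at 1.67 ± 0.47. Rsf1os2 stood at 0.633 to 3.57 CPM, and reads of it and of its sense partner cannot be told apart if strand was not used. All but Eps8l1 were higher in every ANGPT2 library.

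Sox6, which holds precursors in an immature state, was the eighth named higher gene (log2 change 0.71 ± 0.22), and other precursor genes lay on the same side. Sox6 was also found in nuclei with astrocyte markers, at 986 to 1540 CPM against 38.5 to 107 in oligodendrocytes before TMM scaling. The astrocyte list had 8 of 12 genes above 0 (median 0.22, 0.34 in batch 1 and -0.15 in batch 2). The endothelial list had 5 of 5 tested genes above 0 (median 0.82). Of 11 genes of the oligodendrocyte precursor list, 9 were above 0, with a median of 0.50. Every ANGPT2 library was higher for 5 of them, against 1.9% of all genes tested. Vcan, a proteoglycan of precursors, and the next 3 genes were named after their values were seen. Vcan was at 17.9, 24.04 and 17.7 CPM in controls and at 26.2, 28.4, 52.6 and 29.97 CPM in ANGPT2 (0.71 ± 0.25). The ANGPT2 male of batch 2 was the highest. Cacng4 had a log2 change of 0.72 ± 0.25, Pdgfra, the growth factor receptor of precursors, one of 0.53 ± 0.24 and Ptprz1 one of 0.28 ± 0.13. The summed level of the list was 452, 629 and 598 CPM in controls and 586, 689, 977 and 720 CPM in ANGPT2. Of these 11 genes none was at 0 in all libraries. With the 169 nuclei left out that held 2 or more of 6 precursor genes, which by construction removes their UMIs, Vcan had a log2 change of 0.44, Sox6 of 0.39 and Pdgfra of -0.01, and the list median was 0.04. At 40 marker UMIs per 10000 in place of 20, Vcan was at -0.02. The rule gene 9630013A20Rik ranged from 2.56 to 45.5 CPM, high in both ANGPT2 libraries of batch 1 and low in those of batch 2.

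The treatment difference in oligodendrocytes was compared gene by gene with that in all other kept nuclei of the same libraries. Of 17719 genes, edgeR called 0 (0%) and DESeq2 called 0, with 510 and 216 at an unadjusted p under 0.05. Nothing can therefore be called particular to oligodendrocytes. The term was -0.65 ± 0.20 for H2-D1 (oligodendrocytes -1.40, other nuclei -0.73) and -0.61 ± 0.18 for C4b (-1.23 and -0.57). Among the named genes with the smallest p it was 0.79 ± 0.17 for Errfi1, a feedback inhibitor of the EGF receptor, which stood at -0.45 in oligodendrocytes and -1.35 elsewhere. It was 1.21 ± 0.29 for Plpp4, -1.54 ± 0.37 for Col14a1, a collagen, -1.35 ± 0.35 for Npsr1 and -0.75 ± 0.20 for Arhgap15. The gene 9630013A20Rik is left out here, since the rule limits it in oligodendrocytes and not in other nuclei.

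The 4 subtype genes were then followed within the class. Opalin lies on chromosome 19 (41061710 to 41077113, minus strand), as does Il33 (29925114 to 29960718), Ptgds on chromosome 2 (25466709 to 25470046, minus strand) and Klk6 on chromosome 7 (43824499 to 43832030), all on GRCm38. Since depth differed, each nucleus was thinned to 500 UMIs before shares of nuclei with a UMI were compared. No member had fewer, so none was left out. Nuclei with astrocyte or microglial markers, thinned the same way, gave the background. Before thinning those nuclei had median depths of 1233 to 4180 and 825 to 2705 UMIs. Exact binomial intervals cover counting error only.

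Opalin, a membrane protein of the myelin sheath, was detected in 9.21%, 7.42% and 13.1% of the thinned control nuclei and in 13.04%, 10.99%, 12.2% and 14.3% of the ANGPT2 nuclei. In batch 1 both ANGPT2 libraries were above both controls, while in batch 2 the control male lay between the ANGPT2 male and female. The background was 0.154% to 0.797% in astrocyte-marker and 0% to 1.21% in microglia-marker nuclei, so detection in oligodendrocytes was far above it. Without thinning the shares were 20.3% to 43.6%. The means were 9.90% ± 2.89 (SD, n = 3) and 12.6% ± 1.39 (SD, n = 4), 2.74 points higher in ANGPT2 (two-sided exact permutation test, p = 0.229), with 3.70 points in batch 1 and 0.20 in batch 2. The summed level was 205, 162 and 248 CPM in controls and 273, 213, 297 and 326 CPM in ANGPT2, a log2 change of 0.43 ± 0.18 that was 0.28 without the control female of batch 1.

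Il33, an alarmin of the interleukin-1 family kept in the nucleus, was detected in 24.6%, 20.9% and 20.3% of the control nuclei and in 21.7%, 23.01%, 29.1% and 22.6% of the ANGPT2 nuclei. The ANGPT2 male of batch 2 was highest, with a 95% interval of 26.0% to 32.3%. The background was 0.852% to 3.97% in astrocyte-marker nuclei and 0.183% to 1.35% in microglia-marker nuclei. Before thinning 31.2% to 65.1% of the oligodendrocytes had a UMI. The means were 21.96% ± 2.33 (SD, n = 3) and 24.1% ± 3.39 (SD, n = 4; two-sided exact permutation test, p = 0.457). The difference was -0.44 points in batch 1 and 5.505 in batch 2. Its log2 change was 0.18 ± 0.17.

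Ptgds, the enzyme that makes prostaglandin D, which meningeal and choroid plexus cells also express, was found in 45.3%, 47.5% and 21.2% of the control nuclei and in 33.1%, 41.3%, 21.4% and 15.9% of the ANGPT2 nuclei. All 4 libraries of batch 1 were above all 3 of batch 2. The background was high, with 5.38% to 16.9% in astrocyte-marker and 5.85% to 17.1% in microglia-marker nuclei, and in each library the oligodendrocyte share was above both. The part of free RNA in the difference was not tested. Before thinning the oligodendrocyte share was 28.8% to 86.0%. The means were 37.98% ± 14.6 and 27.9% ± 11.4, 10.1 points lower in ANGPT2 (difference -10.1, two-sided exact permutation test, p = 0.343, n = 3 and 4). The difference was -9.19 points within batch 1 and -2.53 within batch 2. The log2 change was -0.61 ± 0.39.

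Klk6, a secreted kallikrein protease, was rare. Only 33 of 9886 thinned nuclei had a UMI, 0.126% to 0.565% per library, against 6 of 3804 astrocyte-marker and 6 of 2187 microglia-marker nuclei. At this depth the share overlapped the background. Without thinning 206 members had a UMI (0.726% to 3.83%), against 16 nuclei in each of the other sets. The thinned means were 0.459% ± 0.0922 in controls and 0.227% ± 0.135 in ANGPT2 (two-sided exact permutation test, p = 0.114, n = 3 and 4). The log2 change of its summed counts was -0.54 ± 0.31. With 1 library reaching 10 Klk6 nuclei, the genes of such nuclei were not tested. Of 12 tested companion genes of the Klk6 branch, 6 were above and 6 below 0 (Cd59a, a complement inhibitor, at -0.61 ± 0.33). Of 17 for the Il33 and Ptgds branch 11 were above 0 (Jph4, a junctophilin, at 0.51 ± 0.18).

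**Figure D4:**
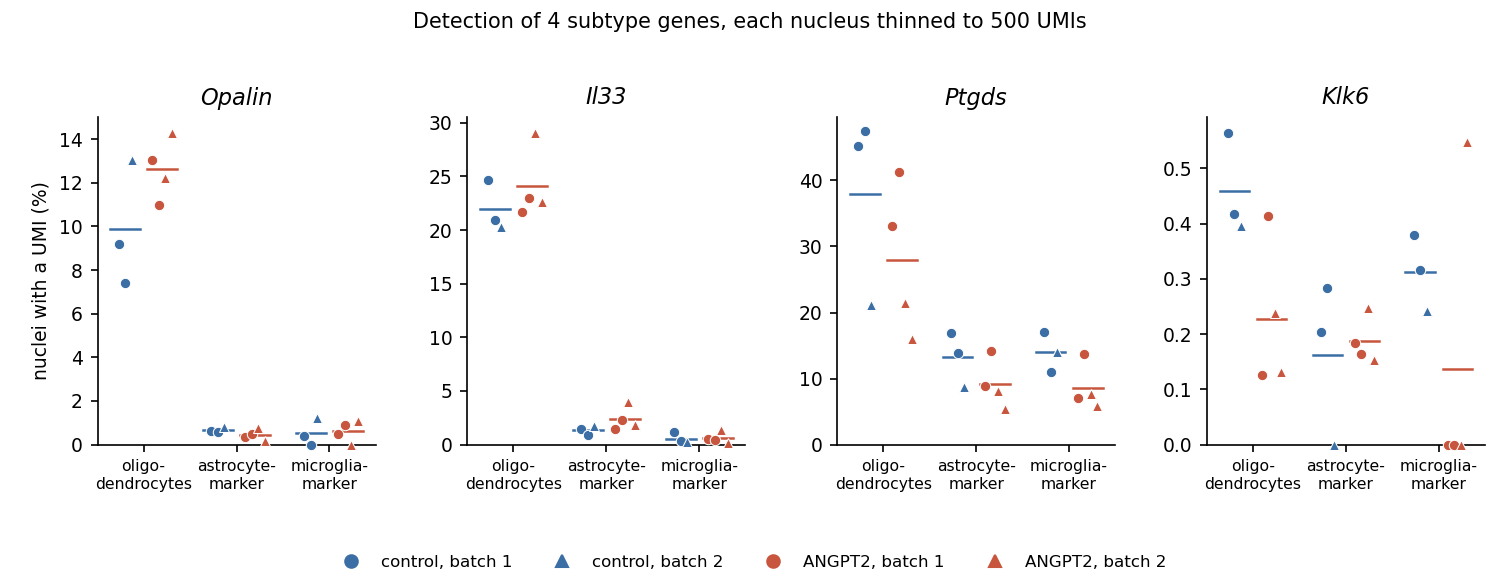
Share of nuclei with at least 1 UMI of Opalin, Il33, Ptgds or Klk6 after thinning to 500 UMIs, in mature oligodendrocytes and in nuclei with astrocyte or microglial markers; 1 point per library, circles for batch 1 and triangles for batch 2, lines for group means, and a separate axis from 0 for each gene. Opalin and Il33 stand clear of the background, Ptgds in oligodendrocytes is higher in all 4 libraries of batch 1 than in the 3 of batch 2, and Klk6 overlaps the other sets.

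Opalin, Il33 and Ptgds were detected together somewhat more often than the product of their shares. In 6 of 7 libraries Il33 was detected more often in nuclei with Opalin (22.2% to 28.9%) than in those without (20.0% to 29.2%), and Ptgds more often in all 7 (22.02% to 57.3% with Opalin, 14.9% to 46.7% without). Il33 and Ptgds shared 822 nuclei, against 740 from the product of their shares in each library. Opalin and Il33 shared 292, against 260, and Opalin and Ptgds 402, against 349. This is a description with no test.

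Nuclei with a UMI of a subtype gene were compared with those without, paired within each library, on thinned counts with the split gene left out. A split by 1 UMI sorts by detection and does not define a cell type. With edgeR's quasi-likelihood test and a Benjamini-Hochberg adjusted p under 0.05, 16 of 4296 genes were called for Opalin (0.372%; 6 higher, 10 lower), 36 of 4654 for Il33 (0.774%; 18 higher, 18 lower) and 109 of 5518 for Ptgds (1.98%; 51 higher, 58 lower). The 3 splits use the same nuclei, so their calls are not independent. These counts include genes that the rule used, Enpp6 in each split and Prr5l in the Il33 and Ptgds splits, which are not read as results. Of the other calls, 9 genes were shared by all 3, each with the same sign. The split of higher against lower calls rests on the filter on low counts. With no filter it was 0 against 140 for Opalin, 7 against 46 for Il33 and 10 against 72 for Ptgds, and the median log2 change over all genes was then -0.36, -0.13 and -0.09.

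Kirrel3, an adhesion molecule of the immunoglobulin family, was higher in nuclei of each kind and in all 7 libraries. Its level was 2366 CPM ± 492 (SD, n = 7) in nuclei with Opalin and 1742 ± 391 in those without, a log2 change of 0.45 ± 0.06 (edgeR, adjusted p = 6.80e-09). It was 0.41 ± 0.05 for Il33 and 0.57 ± 0.04 for Ptgds. With no filter on low counts it was 0.21 for Opalin and not called. Rhoj, a small GTPase, was the other shared higher gene, with 0.74 for Opalin (higher in 6 of 7 libraries), 0.70 for Il33 and 0.59 for Ptgds. On nuclei thinned to 1000 UMIs Rhoj was at 0.25 for Opalin and 0.31 for Ptgds, neither called. Its level differed more between libraries than between nuclei (220 CPM ± 241 and 129 ± 127 in the Il33 split).

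The shared lower genes were Agmo, an ether lipid monooxygenase, Tmem117, Anln, Apod, Robo1, Ctnna2 and 1 unnamed transcript. Agmo fell by 1.17 on the log2 scale in Opalin nuclei, from 162 CPM ± 27.2 to 68.3 ± 19.2 (edgeR, adjusted p = 0.000753), by 0.95 in Il33 nuclei and by 0.81 in Ptgds nuclei. Apod, a lipid carrier of mature oligodendrocytes, had log2 changes of -0.43, -0.26 and -0.64. It is on the companion list of the Il33 and Ptgds branch, as is Kirrel3. Of the 16 tested genes of that list, 6 were above 0 in the Il33 split (median -0.01) and 7 in the Ptgds split (median -0.02). Anln, an actin-binding protein of myelin septin filaments, had log2 changes of -0.50, -0.37 and -0.55. Tmem117 was at -0.61, -0.51 and -0.60, Robo1, an axon guidance receptor, at -0.53, -0.33 and -0.35, and Ctnna2, an alpha-catenin, at -0.28, -0.34 and -0.49. In the Opalin split Tmem117, Robo1 and Ctnna2 were lower in 6 of 7 libraries, as was Robo1 in the Il33 split. Robo1 and Ctnna2 were named after their values were seen.

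**Figure D5:**
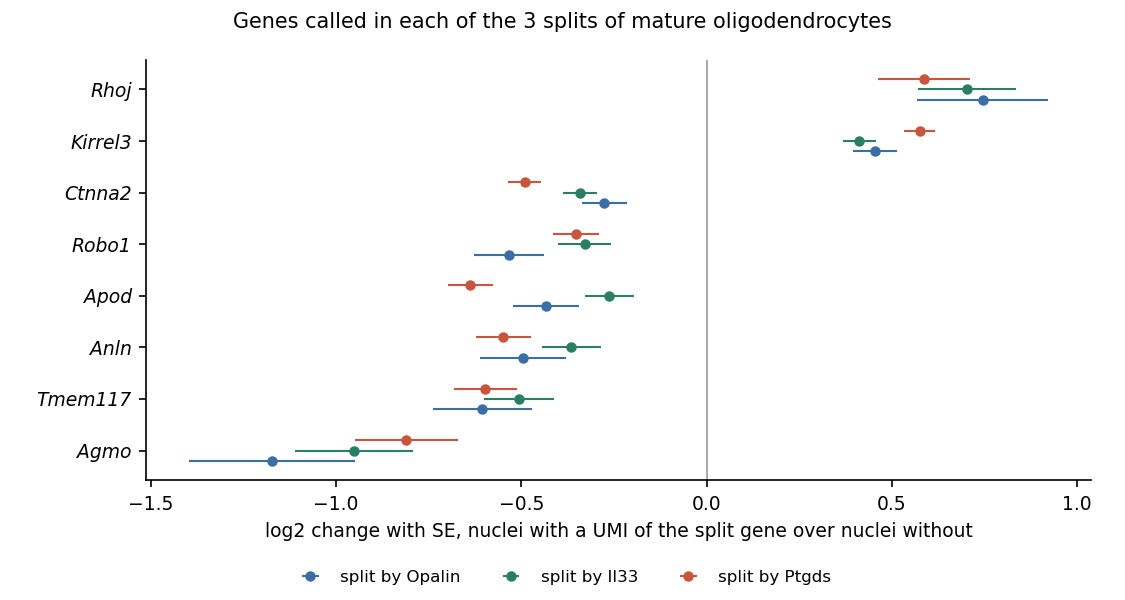
Log2 change with SE of the 8 named genes called in each of 3 splits of mature oligodendrocytes, nuclei with a UMI of Opalin, Il33 or Ptgds over nuclei without, paired within 7 libraries. Kirrel3 and Rhoj lie above 0 and Ctnna2, Robo1, Apod, Anln, Tmem117 and Agmo below 0 in each split.

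Other genes were called in 1 or 2 of the splits, which is no test that they differ between them. In Opalin nuclei Synpr, a synaptic vesicle protein, rose by 0.69 ± 0.14, Ptgds by 0.28 ± 0.07 and Ptprd, a receptor phosphatase, by 0.16 ± 0.04. Nedd4l, a ubiquitin ligase, fell by 1.11 and Grik1, a kainate receptor subunit, by 0.64. In Il33 nuclei Hivep2 rose by 0.38 ± 0.10, Grik2, another kainate receptor subunit, by 0.30 ± 0.05, Dock1 by 0.29 ± 0.06 and Pex5l, a regulator of HCN channels, by 0.26 ± 0.03. Sema5a, a guidance cue, fell by 0.84, Trpm3, a cation channel, by 0.52, Cntn3, an adhesion molecule, by 0.47, Adgrb3, an adhesion receptor, by 0.44 and Slc25a27 by 0.44. In Ptgds nuclei Tma16 rose by 0.72 ± 0.17, Rasal1 by 0.68 ± 0.18, Farp1 by 0.52 ± 0.15, Srgap1 by 0.46 ± 0.08 and Prickle1, of planar cell polarity, by 0.45 ± 0.09. Piezo2, a mechanically gated channel, fell by 1.79, from 60.0 CPM ± 30.8 to 17.9 ± 16.8. Tspan9, a tetraspanin, fell by 1.54, Pla2g4a, a phospholipase, by 1.06, Dlc1 by 0.91, Tln2, a talin, by 0.90 and Crybg3 by 0.85. All of these had the same sign in every library.

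Many of these calls were lost in some setting. At 1000 UMIs per nucleus Nedd4l was at -0.15 in Opalin nuclei, Hivep2 at 0.21 in Il33 nuclei, and Farp1 at 0.19 and Rasal1 at 0.49 in Ptgds nuclei, none of them called. With no filter Synpr, Ptgds and Ptprd were not called in Opalin nuclei (0.45, 0.05 and -0.09), nor Hivep2 and Dock1 in Il33 nuclei (0.30 and 0.21), nor Rasal1 and Farp1 in Ptgds nuclei (0.61 and 0.43). Without called doublets Ptgds was at 0.24 in Opalin nuclei, and Hivep2 at 0.36 and Trpm3 at -0.32 in Il33 nuclei, again not called. Leaving out single libraries also cost the calls of Grik1, Synpr, Ptgds, Ptprd, Apod, Anln, Tmem117, Ctnna2 and Rhoj for Opalin. It cost those of Hivep2, Dock1, Sema5a, Trpm3, Cntn3, Slc25a27, Apod, Robo1 and Rhoj for Il33, and of Tma16, Rasal1, Farp1 and Rhoj for Ptgds. Agmo was called in each split in every setting run.

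Of the myelin list without the 4 rule genes, 16 of 25, 18 of 26 and 16 of 27 tested genes were above 0 in the Opalin, Il33 and Ptgds splits, with medians of 0.07, 0.05 and 0.03. Anln was the 1 called gene of the list for Opalin and for Il33. For Ptgds 4 were called, with Opalin higher, Anln lower and Nfasc and Tspan2, named after their values were seen, higher. Of the precursor list 0 of 4, 0 of 5 and 1 of 5 were above 0, with medians of -0.42, -0.27 and -0.31. The few tested microglial genes were at medians of -0.37, -0.43 and -0.22. Of the neuron list 10 of 15, 9 of 17 and 15 of 17 were above 0, with medians of 0.05, 0.00 and 0.05. In the Opalin split 1 of its genes was called, as higher. The summed level of the neuron list in oligodendrocytes was 12392.5 to 14347.8 CPM per library. The part of microglial or neuronal RNA in the splits was not tested.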

How the data were processed

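The authors deposited raw UMI counts per gene and barcode, made with Cell Ranger 6.1.2 on mm10 (GRCm38), per the submitters' processing notes. Whether intronic reads or strand were used is not given in the sources used here. The members and gene lists were chosen with earlier results of these data known. Named genes are the rule's and subtype genes, up to 4 genes of smallest p per list with those that do not overlap, the 10 lowest p per direction, and up to 8 largest changes per split direction. From these counts, sums per library were tested with edgeR 4.0.16 (R 4.3.3; TMM, filterByExpr with a minimum count of 10 and total of 15, treatment only; Benjamini-Hochberg over all genes), with DESeq2 1.42.0 as an alternative. This was tested on simulated data. The deposited libraries held 25466033 to 100529717 UMIs. Single values used scipy's exact permutation test. Doublets came from simulated neighbours (50 neighbours, 2 per nucleus). Of 32285 genes, 32158 had GENCODE M21 coordinates. The labels' batch numbers mark a shared batch that holds both groups, and they do not pair single libraries. Between groups, deviations from the group means correlated at -0.01 to 0.28 within a batch and at -0.24 to 0.10 across batches. Other settings varied the normalization, filter, block, sex, doublets, selection rule, thinning and libraries. A few genes are not reported here.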

Additional observations from a re-analysis of the deposited data

Results flagged for a closer look

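In the 4 ANGPT2 libraries, 1 library stood apart from the other 3 (Dixon's test) for 5 of 74 quantities tried, and chance alone flags about 1 in 20. Vcan was at 52.6 CPM in the ANGPT2 male of batch 2, next to 29.97 in the nearest other library. Sgk3 was at 220.5 CPM in the ANGPT2 female of batch 1, next to 142, and Stard4 was at 5.16 CPM in that library, next to 8.74. Stat2 was at 25.4 CPM in the ANGPT2 male of batch 1, next to 21.3. Rsf1os2 was at 2.72 CPM in the ANGPT2 female of batch 2, next to 3.44.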

How the results depend on the processing

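Treatment calls within oligodendrocytes were 0 in every setting tried but 1. With no filter on low counts, edgeR called 24 genes in oligodendrocytes and 28 for the difference from other nuclei. With the batch number as a replicate block, which groups libraries by batch, 0 were called. Leaving out single libraries gave 0 calls throughout for the treatment and 0 to 2 for the difference, the 2 without the control male of batch 2. The share's difference was 0.30 points after thinning to 500 UMIs and -1.41 to 1.19 without single libraries, and -2.71 among nuclei under 3 neuronal UMIs. The detected shares kept their sign in each setting run. Without single libraries Opalin's was 1.50 to 4.33 points, Il33's 0.46 to 3.46, Ptgds's -18.5 to -5.30 and Klk6's -0.29 to -0.18.

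Calls in the splits were 9 to 19 for Opalin without single libraries, 140 with no filter (0 higher, 140 lower) and 133 on nuclei thinned to 1000 UMIs. They were 20 to 37 for Il33 (185 at 1000 UMIs) and 59 to 113 for Ptgds (276 at 1000 UMIs). The lowest counts came without the ANGPT2 female of batch 2 for Il33 and without the control male of batch 1 for Ptgds, while for Opalin leaving out any of 4 libraries gave 9. Ptprd in Opalin nuclei was -0.088 with no filter. In the treatment comparison Flt1 was -0.084 without doublets, Vcan -0.024 at 40 marker UMIs per 10000, Pdgfra -0.0078 without nuclei of 2 or more precursor genes (added after the data were seen) and Plin4 -1.88 to 0.22 without single libraries, above 0 only without the control female of batch 1. The causes were not tested. Batch 2's depth, 863 to 1235.5 UMIs per nucleus, limits genes of low level.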
